A study of Mus musculus with 82 samples.

Results

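Mutant and wild type mouse sciatic nerves were compared 7 days post injury, across all genes. The comparison took every library that the labels place at that time, 3 labelled Mutant and 3 labelled wild type. They are 6 of the 18 libraries of an injury time course at 3, 7 and 14 days, and of 82 libraries in the series. Of 51444 genes in the table, 15852 passed the filter on low counts and were tested. The series concerns Mitf, a factor of the MiT/TFE group, in Schwann cells and nerve repair. The labels did not say which gene or allele Mutant stands for, which promoter or Cre driver was used, the age of the mice, the kind of injury or whether animals were pooled. All groups used here were injured. RNA was sequenced as stranded, poly(A)-selected libraries from quick-frozen nerve. Whether replicates are different mice was not labelled either, so the p-values speak only to variation among these libraries, part of which can be technical.

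Schwann cells are the glia that wrap axons in myelin. After an axon is cut they stop making myelin, take on a repair state that secretes growth factors and guides regrowing axons, and clear myelin debris together with macrophages that enter the nerve from the blood. MiT/TFE factors bind E-box sequences and are known for control of pigment cell genes and of lysosome and autophagy genes.

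Levels are given as CPM, estimated counts scaled to a common library size and composition, and differences as log2 changes, Mutant minus wild type. Groups are said not to overlap where every Mutant CPM lies on the same side of every wild type CPM. The 6 libraries held between 15440000 and 18570000 estimated counts. Mutant replicate 1 stood apart: its 20 myelin genes summed to 14800 CPM, against 2070 and 1770 CPM in Mutant replicates 2 and 3 and between 1140 and 1620 CPM in wild type. The same library had 0 CPM of the Y-linked gene Ddx3y, which stood at 18.8 and 11.8 CPM in the other Mutant libraries and between 13.5 and 52.7 CPM in wild type. Xist, transcribed from the inactive X chromosome, stood at 19.8 and 3.60 CPM in wild type replicates 1 and 2, under 1 CPM in wild type replicate 3, and between 3.15 and 4.55 CPM in Mutant. Skeletal muscle markers summed to 8210, 3320 and 36400 CPM in wild type and to 1420, 3030 and 2090 CPM in Mutant. The part of myelin RNA, of sex and of muscle RNA in the results below was not tested beyond the fits named with them. In bulk nerve, fewer cells of a type and less RNA per cell cannot be told apart.

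Mitf (chromosome 6, 97807052 to 98021349, plus strand) stood at 5.13, 5.57 and 4.58 CPM in wild type and at 3.60, 4.70 and 1.93 CPM in Mutant. The groups overlapped, since Mutant replicate 2 lay above the lowest wild type library. The log2 change was -0.58 (SE 0.25, edgeR adjusted p = 0.352), and -0.60 without Mutant replicate 1. It is not given in the sources used here whether these reads come from an altered part of the gene, so the level does not check the label. Of the 9 genes of the MiT/TFE and folliculin list, 0 passed edgeR or DESeq2. With all libraries 2 had an unadjusted edgeR p under 0.05, both lower, beside 6.17% of all tested genes. Tfec, the family member known from macrophages, had 3.40, 2.56 and 2.65 CPM in wild type and 1.25, 2.56 and 1.23 CPM in Mutant, with Mutant replicate 2 just below the lowest wild type value. Tfe3 and Tfeb, the members that drive lysosome genes, differed by -0.03 and 0.04 on the log2 scale.

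With all 6 libraries, 0 of 15852 genes (0%) passed edgeR's quasi-likelihood test with Benjamini-Hochberg adjusted p under 0.05, while 2094 (13.2%) had an unadjusted p under 0.05. Of these, 1116 were higher in Mutant (7.04% of the genes tested) and 978 lower (6.17%). Without Mutant replicate 1 edgeR called 2 of 16182 genes (0.0124%), Slc27a1 and Tgm1, both higher in Mutant, and 1467 genes (9.07%) had an unadjusted p under 0.05, 872 higher (5.39%) and 595 lower (3.68%). DESeq2, run as the alternative tool, called 243 genes (1.53%), 183 higher (1.15%) and 60 lower (0.379%), and 76 genes (0.47%) without Mutant replicate 1, 63 higher (0.389%) and 13 lower (0.0803%). In simulated counts with 100 genes changed 2-fold and 100 changed 4-fold, DESeq2 also called 31 unchanged genes and edgeR 7. Without Mutant replicate 1 the unchanged genes called were 33 and 4. Of the genes changed 2-fold, DESeq2 recovered 63% and edgeR 48%, or 52% and 30% without Mutant replicate 1. DESeq2's calls can therefore hold more false ones than edgeR's at the same threshold, and edgeR's can miss more real changes. The simulated spread was taken from edgeR's own fit and no library was set apart, so these rates need not hold for the real counts. Groups did not overlap in 1655 genes higher in Mutant (10.4%) and 1911 lower (12.1%), and without Mutant replicate 1 in 2364 (14.9%) and 2580 (16.3%). The calls shared by both DESeq2 fits numbered 64, which is 26.3% of the first set and 84.2% of the second. Of the shared genes 54 were higher and 10 lower in Mutant. Leaving out wild type replicate 3, the library richest in muscle RNA, raised edgeR's calls to 11, and leaving out Mutant replicate 3 raised them to 7.

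Slc27a1 encodes a fatty acid transport protein that takes up long-chain fatty acids and couples them to coenzyme A. It had 32.7, 33.2 and 40.5 CPM in wild type and 62.9, 86.7 and 75.9 CPM in Mutant. All Mutant libraries lay above all wild type libraries, and Mutant replicate 1 was the lowest of its group. Its log2 change was 1.08 (SE 0.17, edgeR adjusted p = 0.0638) with all libraries, and over the alternatives adjusted p ran from 2.74e-07 with DESeq2 to 0.262. Without Mutant replicate 1, Slc27a1 rose (log2 change 1.21, SE 0.18, edgeR adjusted p = 0.0469). That call ended with a replicate block, a sex or a muscle covariate, or the 5 libraries of day 7 alone, where edgeR adjusted p ran from 0.107 to 0.332. It also ended when wild type replicate 1 or 2 or Mutant replicate 2 or 3 was left out as well. Over every alternative of the fit without Mutant replicate 1, adjusted p ran from 2.02e-07 with DESeq2 to 0.701.

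Tgm1, a transglutaminase that crosslinks proteins, had 2.23, 2.17 and 1.39 CPM in wild type and 3.44, 5.85 and 13.4 CPM in Mutant. The groups did not overlap, and Mutant replicate 3 was far above the others. With Mutant replicate 1 left out, Tgm1 rose (log2 change 2.33, SE 0.33, edgeR adjusted p = 0.0469). Leaving out Mutant replicate 3 as well lowered the change to 1.60 (edgeR adjusted p = 0.261). The call also ended with any wild type library left out, with the block, with either covariate and with the 7-day libraries alone, and over the alternatives adjusted p ran from 2.53e-06 with DESeq2 to 0.428.

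Ranked by p, the first 10 genes higher in Mutant were Nat8l, Slc27a1, Adcy1, Txndc15, Gjb1, Prss12, Acer2, Celsr2, Tmc6 and Tgfa. None passed edgeR's test with all libraries, and all 10 passed DESeq2 both with and without Mutant replicate 1. None of the 10 overlapped between groups, a pattern that 10.4% of all tested genes showed in this direction. Since these genes were ranked by their own p, the counts describe them and support nothing further.

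**Figure D1:**
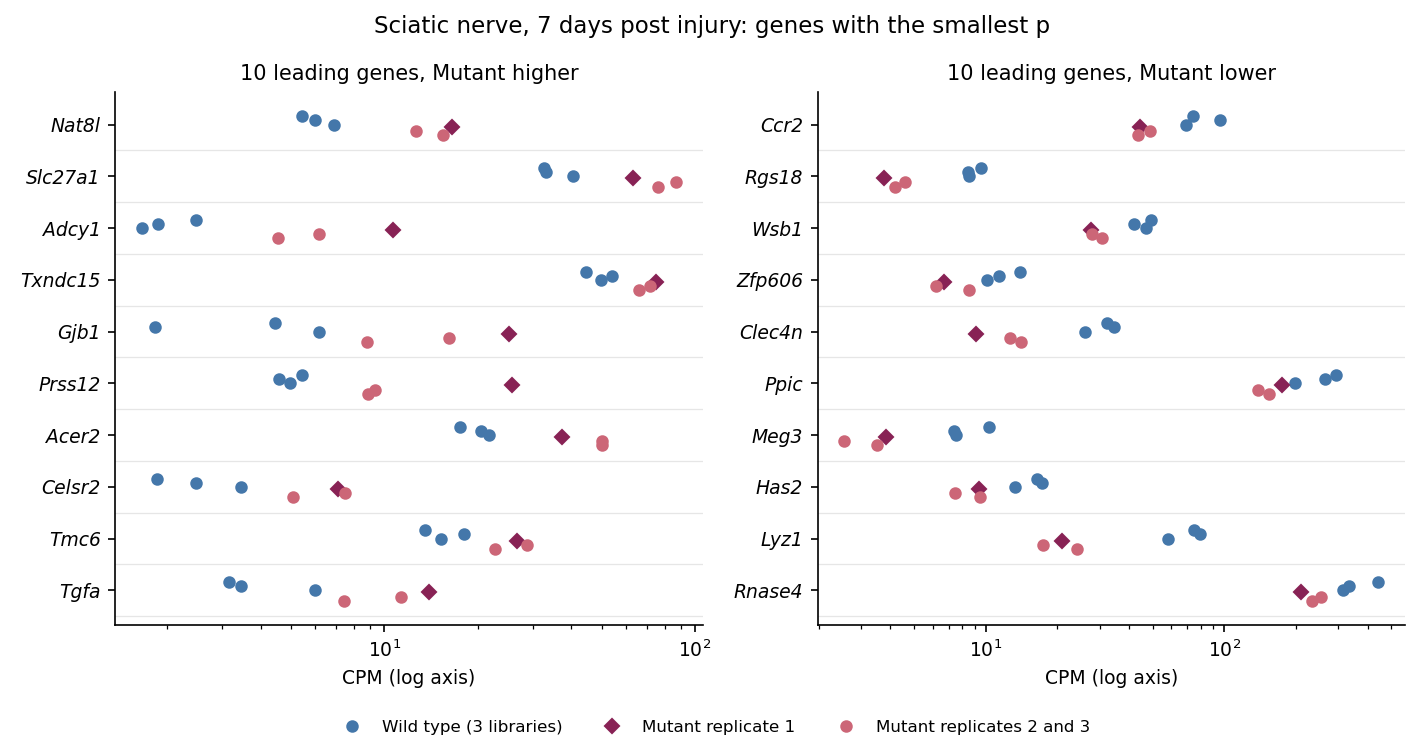
CPM on a log axis of the 10 genes with the smallest edgeR p in each direction, with 1 point per library (blue, wild type; pink, Mutant replicates 2 and 3; dark diamond, Mutant replicate 1). In each gene the 3 Mutant points lie on one side of the 3 wild type points, and Mutant replicate 1 is the highest point for Adcy1, Gjb1 and Prss12, among others.

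Nat8l makes N-acetylaspartate, a metabolite known as an acetate source for lipid synthesis. Its levels were 5.44, 5.97 and 6.90 CPM in wild type and 16.5, 12.6 and 15.4 CPM in Mutant. The lowest Mutant library was well above the highest wild type library, and the log2 change was 1.28 (SE 0.18, edgeR adjusted p = 0.0554), or 1.22 without Mutant replicate 1. Acer2, an alkaline ceramidase of the Golgi that splits ceramide into sphingosine and a fatty acid, stood between 17.6 and 21.8 CPM in wild type and between 37.4 and 50.1 CPM in Mutant, with Mutant replicate 1 the lowest of its group. Its log2 change was 1.20 (SE 0.24), and 1.34 without Mutant replicate 1. Elovl7, a fatty acid elongase, had 3.34, 1.87 and 3.12 CPM in wild type and 18.4, 5.07 and 5.67 CPM in Mutant, so that its log2 change of 1.81 was 0.97 without Mutant replicate 1.

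Gjb1 encodes connexin 32, the gap junction protein of myelin whose loss causes the X-linked form of Charcot-Marie-Tooth disease. Gjb1 had 4.45, 1.83 and 6.17 CPM in wild type and 25.1, 16.2 and 8.82 CPM in Mutant. Each Mutant library lay above each wild type library, and the log2 change was 2.02 (SE 0.39, edgeR adjusted p = 0.13), or 1.62 without Mutant replicate 1. Adcy1, a calcium-stimulated adenylyl cyclase that makes cyclic AMP, had 2.47, 1.87 and 1.66 CPM in wild type and 10.6, 6.17 and 4.54 CPM in Mutant. Its log2 change was 1.83 with Mutant replicate 1 and 1.43 without it. Tgfa, a ligand of the EGF receptor, had 3.15, 3.45 and 5.97 CPM in wild type and 13.9, 11.3 and 7.43 CPM in Mutant, a log2 change of 1.38, and 1.18 without Mutant replicate 1.

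The other leading genes included a protease, a channel and adhesion proteins. Txndc15, a thioredoxin-domain protein, stood between 44.6 and 53.9 CPM in wild type and between 66.0 and 74.6 CPM in Mutant, with a log2 change of 0.52. Celsr2, an adhesion receptor of the planar cell polarity pathway, had a log2 change of 1.34, and Tmc6, a transmembrane channel-like protein, of 0.74. Prss12, the secreted serine protease neurotrypsin, had 25.7 CPM in Mutant replicate 1 against 9.30 and 8.88 CPM in the other Mutant libraries and 4.59 to 5.44 CPM in wild type, and its log2 change of 1.55 was 0.88 without Mutant replicate 1. Trpv4, a calcium-permeable channel opened by warmth and swelling, stood at 4.02 to 5.92 CPM in wild type and 8.40 to 11.5 CPM in Mutant.

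Ranked by p, the first 10 genes lower in Mutant were Ccr2, Rgs18, Wsb1, Zfp606, Clec4n, Ppic, Meg3, Has2, Lyz1 and Rnase4. None passed edgeR's test. All 10 passed DESeq2, and 5 passed it without Mutant replicate 1. None overlapped between groups, against 12.1% of all tested genes in this direction.

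Ccr2 is the receptor for Ccl2 that brings monocytes from the blood into injured tissue. It had 73.6, 95.9 and 69.1 CPM in wild type and 44.5, 48.9 and 43.7 CPM in Mutant. The Mutant libraries were close to each other and below every wild type library, and the log2 change was -0.80 (SE 0.15, edgeR adjusted p = 0.13), or -0.77 without Mutant replicate 1. Clec4n, the fungal pattern receptor dectin-2 of myeloid cells, had 32.1, 34.4 and 26.1 CPM in wild type and 9.11, 12.6 and 14.1 CPM in Mutant, a log2 change of -1.37. Rgs18, a regulator of G protein signalling found in blood cells, had 9.58, 8.48 and 8.56 CPM in wild type and 3.76, 4.60 and 4.17 CPM in Mutant, a log2 change of -1.09. Gpr183, the oxysterol receptor that steers migrating immune cells, had 4.08 to 5.67 CPM in wild type and 2.30 to 3.65 CPM in Mutant.

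Lyz1, a lysozyme, had 74.3, 78.9 and 57.8 CPM in wild type and 20.8, 17.5 and 24.2 CPM in Mutant, a log2 change of -1.76 (SE 0.38, edgeR adjusted p = 0.133). Lyz1 is a near copy of Lyz2, the lysozyme of macrophages, and how reads were shared between them is uncertain. Lyz2 had 2889, 2696 and 2834 CPM in wild type and 995.7, 2159 and 1029 CPM in Mutant, so both were lower in each Mutant library, with Mutant replicate 2 nearest to wild type for Lyz2 alone. The macrophage markers, 18 genes, summed to 4510, 5080 and 5310 CPM in wild type and to 2290, 5470 and 2260 CPM in Mutant. Mutant replicate 2 was therefore above all wild type libraries in summed macrophage markers while it had low Ccr2, Clec4n, Rgs18 and Lyz1. The part of macrophage RNA in those genes was not tested.

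Has2, the enzyme that makes hyaluronan, had 16.4, 17.2 and 13.3 CPM in wild type and 9.38, 7.42 and 9.46 CPM in Mutant, a log2 change of -0.84. Ppic, cyclophilin C, had 293, 263 and 197 CPM in wild type and 174, 139 and 154 CPM in Mutant, a log2 change of -0.69. Meg3, a long noncoding RNA of an imprinted region, had 10.3, 7.35 and 7.49 CPM in wild type and 3.82, 2.56 and 3.53 CPM in Mutant, a log2 change of -1.34. In each of these genes the Mutant libraries were below every wild type library. Rnase4, a secreted ribonuclease, stood between 315 and 440 CPM in wild type and between 209 and 253 CPM in Mutant. Wsb1, the substrate receptor of a ubiquitin ligase, had a log2 change of -0.68, the zinc finger gene Zfp606 of -0.73 and Hmgb2, a chromatin protein of dividing cells, of -0.62.

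The promoters of leading genes are shown because MiT/TFE factors bind the E-boxes CACGTG and CATGTG. They are RefSeq windows on GRCm38.p6 from 250 bases before to 50 bases after each annotated start, and 29 of 37 genes looked up (Mitf and those ranked by p) had at least 1. Each strand was searched for CACGTG, which is its own reverse complement, for CATGTG, and for the longer forms TCACGTG and TCATGTG, each of which holds one of the shorter. CACGTG was in 3 of 19 promoters of the 14 leading higher genes (15.8%), in 1 of 11 promoters of the 13 leading lower genes (9.09%), and in 7.15% of all 32851 promoters. CATGTG was in 1 of 19 and 1 of 11 promoters, against 14.2% of all. TCACGTG was in 2 and 1 of them, against 3.77% of all, and TCATGTG in 1 and 0, against 3.77%. A match is a description of the letters and not evidence of binding, and no match says only that these letters are not in this window. Capitals mark CACGTG or CATGTG in an internal start of Slc27a1 (chr8:71570344-71570643, plus strand), in Adcy1 (chr11:7063183-7063482, plus strand), in the first start of Gjb1 (chrX:101376126-101376425, plus strand) and in Wsb1 (chr11:79254646-79254945, minus strand). They begin 202, 169 and 191 bases upstream of the start in the first 3, and 219 and 183 bases upstream in Wsb1. The other matches counted among leading genes, CACGTG in Tmc6 and CATGTG in a later start of Meg3, are not printed.
Slc27a1: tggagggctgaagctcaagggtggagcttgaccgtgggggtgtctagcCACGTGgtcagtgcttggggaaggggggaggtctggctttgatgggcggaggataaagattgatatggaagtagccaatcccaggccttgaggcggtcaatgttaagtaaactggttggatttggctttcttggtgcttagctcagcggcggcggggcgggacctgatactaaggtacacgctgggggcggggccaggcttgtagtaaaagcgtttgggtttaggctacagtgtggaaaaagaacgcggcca
Adcy1: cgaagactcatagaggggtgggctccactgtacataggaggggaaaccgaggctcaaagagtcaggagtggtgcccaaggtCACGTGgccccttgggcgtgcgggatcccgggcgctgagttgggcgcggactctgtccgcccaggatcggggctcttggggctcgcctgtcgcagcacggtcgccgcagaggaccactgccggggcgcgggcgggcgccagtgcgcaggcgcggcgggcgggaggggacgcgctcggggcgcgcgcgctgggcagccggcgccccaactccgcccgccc
Gjb1: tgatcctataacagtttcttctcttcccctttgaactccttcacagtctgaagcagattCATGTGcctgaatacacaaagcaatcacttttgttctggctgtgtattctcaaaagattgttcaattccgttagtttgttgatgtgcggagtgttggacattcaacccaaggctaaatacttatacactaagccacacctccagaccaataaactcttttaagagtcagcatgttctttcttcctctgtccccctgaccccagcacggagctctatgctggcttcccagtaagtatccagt
Wsb1: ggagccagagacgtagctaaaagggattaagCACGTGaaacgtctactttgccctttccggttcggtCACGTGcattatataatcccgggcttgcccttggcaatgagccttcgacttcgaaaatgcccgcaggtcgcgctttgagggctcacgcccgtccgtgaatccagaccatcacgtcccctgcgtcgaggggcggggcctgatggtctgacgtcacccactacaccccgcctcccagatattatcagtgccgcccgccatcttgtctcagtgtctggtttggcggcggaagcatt
The genes lie, in GENCODE vM21 on mm10, at chromosome 8, 71568882 to 71587302 (Slc27a1), chromosome 11, 7063489 to 7178506 (Adcy1), chromosome X, 101376378 to 101385629 (Gjb1), and chromosome 11, 79239372 to 79254671 (Wsb1). The other genes described above lie at chromosome 5, 33995984 to 34005916 (Nat8l, plus strand), chromosome 4, 86874396 to 86934822 (Acer2, plus), chromosome 9, 124101950 to 124113557 (Ccr2, plus), chromosome 6, 123229843 to 123247021 (Clec4n, plus), chromosome 10, 117287797 to 117292868 (Lyz1, minus), chromosome 12, 109541001 to 109571726 (Meg3, plus), and chromosome 14, 55700009 to 55713926 (Tgm1, minus).

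Levels of myelin genes depended on Mutant replicate 1. Pmp22, the peripheral myelin protein whose dosage causes neuropathy, had 178, 153 and 149 CPM in wild type and 3519, 160 and 148 CPM in Mutant. Mutant replicate 1 stood alone, and the other Mutant libraries lay in or next to the wild type range. Its log2 change of 3.00 became -0.04 without Mutant replicate 1. Mag, an adhesion protein of the myelin collar, went from 2.94 to -0.23, and Ncmap, a membrane protein of non-compact myelin, from 4.72 to -0.70.

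Of the 20 myelin genes, edgeR called 0 and DESeq2 called 9 higher and 0 lower with all libraries, and 1 higher, Gjb1, without Mutant replicate 1. At an unadjusted edgeR p under 0.05, 18 were higher and 0 lower, beside 7.04% and 6.17% of all tested genes. Counts of list members by unadjusted p, here and below, were taken with all libraries only. The median log2 change of the 20 myelin genes was 2.14 with Mutant replicate 1 and 0.42 without it, beside -0.02 and -0.01 over all genes tested. The Mutant values lay above wild type without overlap in 5 of the 20, with or without that library, beside 10.4% and 14.9% of all tested genes. These were Gjb1, Mbp, Mal, Ndrg1 and Mpzl2. Without Mutant replicate 1 Gjc3, a connexin of Schwann cells, was lower without overlap. Mbp, the basic protein that compacts the cytoplasmic faces of myelin, had 282, 150 and 281 CPM in wild type and 1589, 380 and 355 CPM in Mutant. Ndrg1, abundant in myelinating Schwann cells and mutated in a demyelinating neuropathy, had 224, 191 and 322 CPM in wild type and 618, 377 and 358 CPM in Mutant, a log2 change of 0.88, and 0.60 without Mutant replicate 1. Mal, a raft protein of myelin, stood at 71.3 to 78.4 CPM in wild type and at 520, 101 and 115 CPM in Mutant. In these genes Mutant replicate 1 was the highest library, and the other Mutant libraries were still above wild type.

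**Figure D2:**
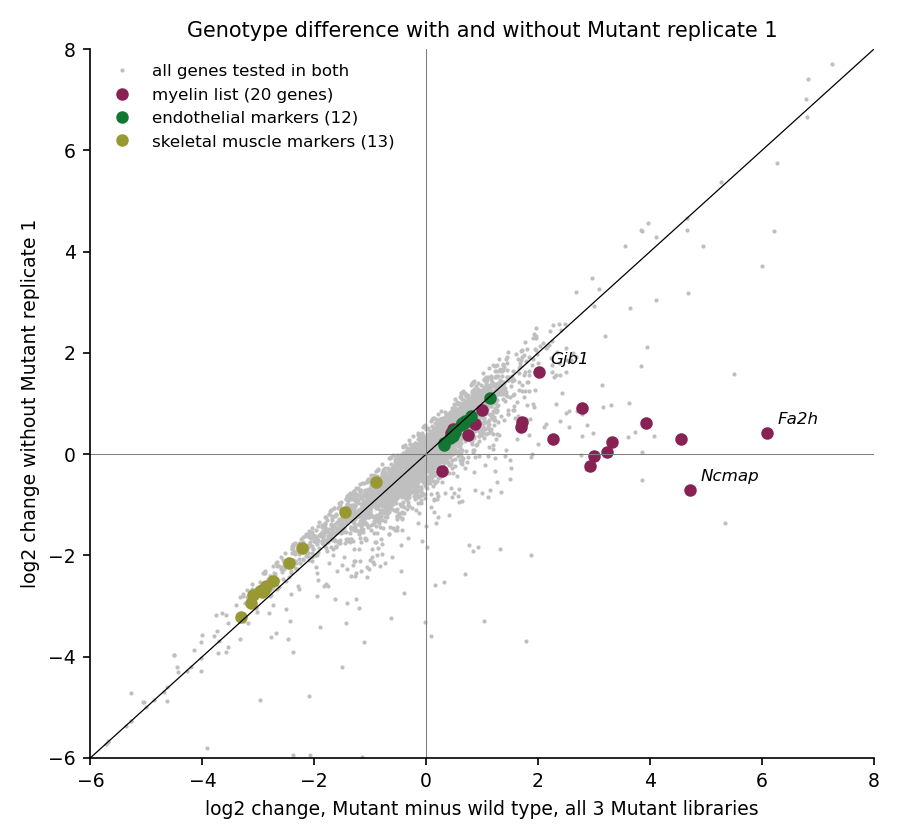
Log2 change, Mutant minus wild type, with all libraries (horizontal) against that without Mutant replicate 1 (vertical), for 15852 genes, of which 22 lie outside the plotted range. Most myelin genes (dark points) lie to the right of the diagonal, up to 6.10 for Fa2h against 0.42 without that library, while endothelial (green) and skeletal muscle markers (olive) lie close to it.

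Most genes of fatty acid and myelin lipid synthesis, 21 of 22, had a positive log2 change, or 20 without Mutant replicate 1. Of the 22 genes, edgeR called 0, DESeq2 called 4 higher with all libraries and 0 without Mutant replicate 1, and 8 were higher without overlap, or 9 without Mutant replicate 1, beside 10.4% and 14.9% of all tested genes. At an unadjusted edgeR p under 0.05, 10 were higher and 0 lower, beside 7.04% and 6.17% of all tested genes. Acaca, the acetyl-CoA carboxylase that makes malonyl-CoA, had 39.1, 46.0 and 30.2 CPM in wild type and 104, 64.0 and 76.4 CPM in Mutant. Fasn, the fatty acid synthase, had 120, 130 and 56.1 CPM in wild type and 420, 172 and 270 CPM in Mutant. Srebf1, which encodes the SREBP1 factor that drives both, had 46.3, 59.2 and 55.2 CPM in wild type and 96.2, 76.0 and 78.2 CPM in Mutant. In all 3 the groups did not overlap and Mutant replicate 1 was the highest library. Their log2 changes were 1.08, 1.49 and 0.64, and 0.88, 1.13 and 0.54 without it. The list's median was 0.60, and 0.35 without Mutant replicate 1. Adipocyte markers, which share this pathway, summed to 3840, 2630 and 2230 CPM in wild type and to 3540, 3450 and 5040 CPM in Mutant, and their part was not tested. Plin1, the coat protein of fat droplets, stood at 47.6 to 86.5 CPM in wild type and at 123 to 141 CPM in Mutant, without overlap.

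The level of cholesterol synthesis genes differed between Mutant replicate 1 and the other Mutant libraries. The median of the 24 genes was 0.21 with Mutant replicate 1 and -0.11 without it. Without overlap 0 were higher and 1 lower (4 lower without it), beside 12.1% and 16.3% of all tested genes lower. Of the list 0 passed edgeR or DESeq2, and 2 had an unadjusted edgeR p under 0.05, both higher, beside 7.04% of all tested genes.

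Some genes of non-myelinating and immature Schwann cells stood higher in Mutant with and without that library. Of 13 genes, 6 were higher without overlap and 0 lower, or 7 and 0 without Mutant replicate 1, beside 10.4% and 14.9% of all tested genes higher. With all libraries 7 had an unadjusted edgeR p under 0.05, all higher, beside 7.04% of all tested genes. The median log2 change was 0.66, or 0.67 without Mutant replicate 1, and DESeq2 called 2 higher in each fit (edgeR 0 in each). Cadm2, a cell adhesion molecule, had 4.63, 3.95 and 6.63 CPM in wild type and 13.1, 8.47 and 10.8 CPM in Mutant, a log2 change of 1.09 (SE 0.22, edgeR adjusted p = 0.13). Matn2, an extracellular matrix protein of peripheral nerve, had 136, 175 and 172 CPM in wild type and 278, 253 and 226 CPM in Mutant. Chl1, a neural adhesion molecule, stood at 26.3 to 38.9 CPM in wild type and at 50.3 to 60.9 CPM in Mutant. Erbb3, the neuregulin receptor of Schwann cells, had 25.6, 41.5 and 45.9 CPM in wild type and 56.4, 70.0 and 58.6 CPM in Mutant. Sox10, which specifies Schwann cells, had 39.9, 60.9 and 80.1 CPM in wild type and 112, 135 and 84.3 CPM in Mutant, so that only Mutant replicate 3 came close to wild type. All 10 Schwann cell markers had a positive log2 change, 9 without Mutant replicate 1.

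Repair genes depended on which Mutant libraries were counted. Of 30 tested, 6 were higher without overlap with all libraries, beside 10.4% of all tested genes. Without Mutant replicate 1, 15 were higher and 2 lower, beside 14.9% and 16.3% of all tested genes. Leaving out a library by itself raises such counts. The medians were 0.43 and 0.54, and DESeq2 called 1 and 2 higher (edgeR 0 in each). Olig1, a transcription factor induced in repair cells, had 13.8, 12.2 and 14.1 CPM in wild type and 14.6, 30.5 and 27.6 CPM in Mutant. Sox2, a factor of the immature and repair states, had 21.98, 23.4 and 40.2 CPM in wild type and 30.4, 59.1 and 46.1 CPM in Mutant, and passed DESeq2 without Mutant replicate 1 (adjusted p = 0.0222, against 0.279 in edgeR). Gdnf, a growth factor for motor and sensory axons, had 5.75, 5.33 and 10.6 CPM in wild type and 8.40, 18.7 and 15.3 CPM in Mutant. Shh, a hedgehog ligand made by repair cells, had 5.07, 9.96 and 26.7 CPM in wild type and 20.7, 55.1 and 30.1 CPM in Mutant. In Sox2, Gdnf and Shh wild type replicate 3 was the highest wild type library and Mutant replicate 1 lay within the wild type range.

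Of 14 Schwann cell transcription factors, 2 were higher and 0 lower without overlap, beside 10.4% and 12.1% of all tested genes. Without Mutant replicate 1 these were 3 and 2, beside 14.9% and 16.3%. Their median was -0.06, and 0.03 without Mutant replicate 1. Pou3f1, the POU factor of promyelinating cells, had 3.21, 4.93 and 5.37 CPM in wild type and 13.6, 14.4 and 5.93 CPM in Mutant, and passed DESeq2 with all libraries (adjusted p = 0.0047, against 0.155 in edgeR and 0.082 in DESeq2 without Mutant replicate 1). Egr2, the master factor of myelination, had 12.9, 21.9 and 16.6 CPM in wild type and 17.2, 6.48 and 8.98 CPM in Mutant, so that the library rich in myelin RNA was within the wild type range and the other Mutant libraries were below it.

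**Figure D3:**
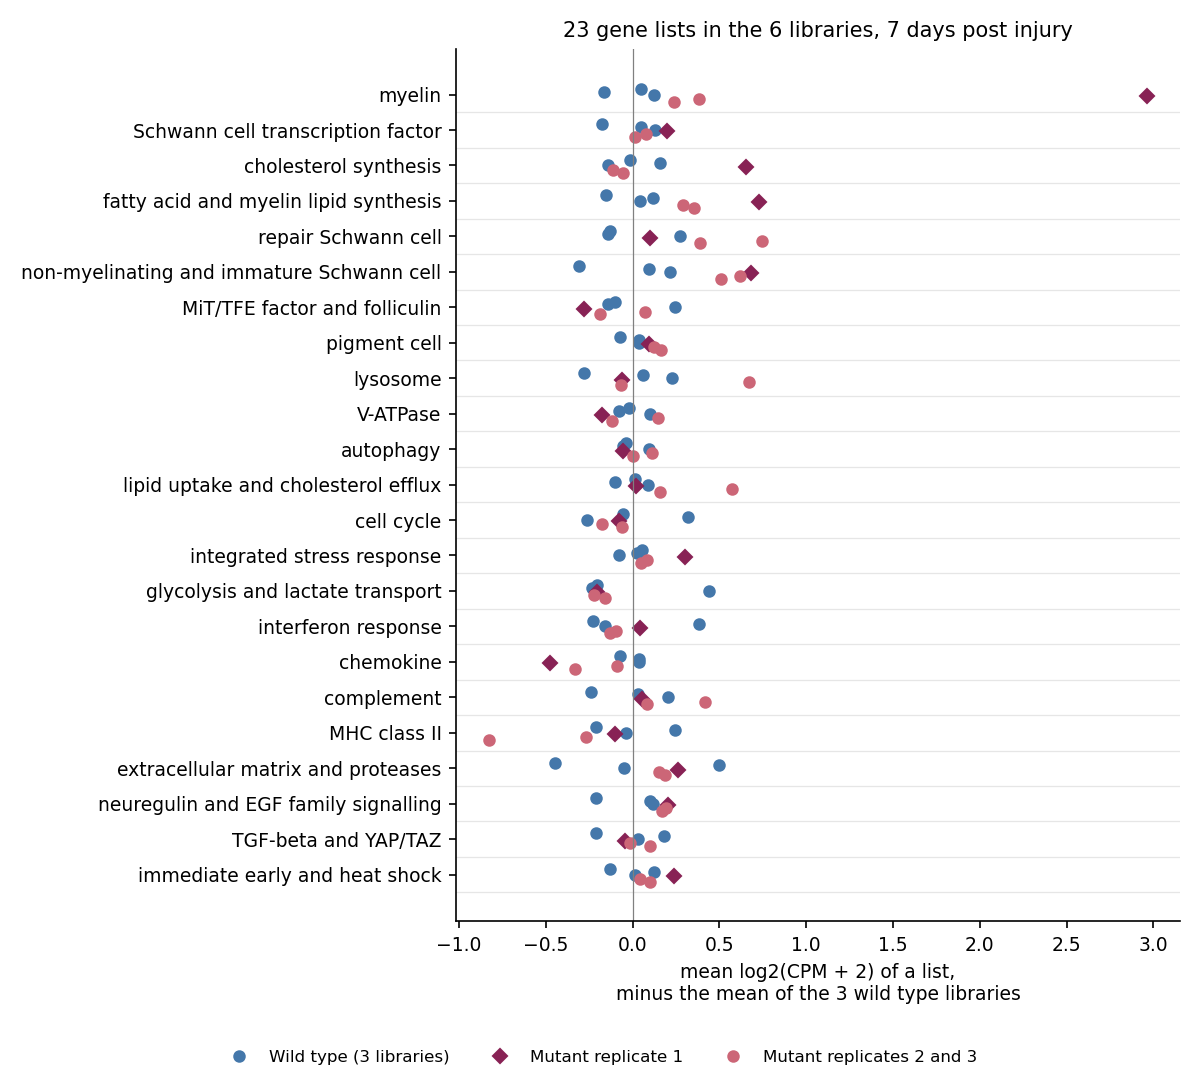
Median over the genes of each of 23 lists of log2(CPM + 2), centred per gene on the 6 libraries (the axis label reads mean). The mean of the 3 wild type libraries was subtracted, so that wild type points centre on 0. Mutant replicate 1 (diamond) stands apart for myelin and cholesterol synthesis, and Mutant replicate 2 for lysosome and lipid uptake. The 3 Mutant points lie above wild type for non-myelinating and immature Schwann cell genes. The same holds for the myelin, fatty acid and myelin lipid synthesis, EGF family and pigment cell lists, by a narrow gap in the last 2. For chemokines they lie below wild type.

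Lysosome genes followed Mutant replicate 2. The 37 genes summed to 11200, 13600 and 17100 CPM in wild type and to 11700, 24300 and 12500 CPM in Mutant. Their median log2 change was 0.24, and 0.35 without Mutant replicate 1. Without overlap 3 were higher (Ctsf and Arsa among them), or 4 higher and 1 lower without Mutant replicate 1. The higher shares were no larger than the 10.4% and 14.9% of all tested genes. Of the list 0 passed edgeR or DESeq2, and 2 had an unadjusted edgeR p under 0.05, both higher, beside 7.04% of all tested genes. Arsa, the arylsulfatase that degrades the myelin lipid sulfatide, had 27.9, 38.6 and 31.2 CPM in wild type and 47.2, 42.4 and 46.4 CPM in Mutant, without overlap. Mcoln1, the calcium channel of the lysosome, had 13.6, 16.5 and 25.2 CPM in wild type and 24.2, 27.9 and 23.7 CPM in Mutant, with overlap through wild type replicate 3. Gpnmb, a glycoprotein of pigment cells and lipid-loaded macrophages, had 178, 294 and 487 CPM in wild type and 185, 918 and 180 CPM in Mutant. Mutant replicate 2 thus stood alone for Gpnmb, with the other Mutant libraries at the low end of wild type. Of 18 V-ATPase genes, whose products acidify the lysosome, 0 were free of overlap and the median was -0.01. Of 26 autophagy genes 1 was higher and 2 lower without overlap, beside 10.4% and 12.1% of all tested genes. Without Mutant replicate 1 these were 5 and 2, beside 14.9% and 16.3%. The medians were 0.06 and 0.07, and of 7 tested pigment cell genes 0 were free of overlap. No gene of these lists passed edgeR or DESeq2.

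In the lipid uptake and efflux list 4 of 18 genes were higher without overlap, 6 without Mutant replicate 1, beside 10.4% and 14.9% of all tested genes. Of the list 0 passed edgeR or DESeq2. Lrp1, a receptor that takes up lipoproteins and myelin debris, had 144, 213 and 201 CPM in wild type and 239, 337 and 244 CPM in Mutant. Abca1, the cholesterol exporter, had 109, 146 and 268 CPM in wild type and 165, 454 and 247 CPM in Mutant, with Mutant replicate 2 far above the rest. Fabp4, a fatty acid binding protein of adipocytes, endothelium and macrophages, had 1846, 992 and 1014 CPM in wild type and 1851, 2251 and 2210 CPM in Mutant.

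More chemokine genes were lower than higher in Mutant. Of 26 genes, edgeR called 0, DESeq2 called 4 lower with all libraries and 1, Ccr2, without Mutant replicate 1, and 6 were lower and 0 higher without overlap, or 8 and 0 without Mutant replicate 1, beside 12.1% and 16.3% of all tested genes lower. At an unadjusted edgeR p under 0.05, 9 were lower and 0 higher, beside 6.17% and 7.04% of all tested genes. Their median log2 change was -0.28, and -0.43 without Mutant replicate 1. Ccl8, a chemokine of resident macrophages, had 179, 201 and 223 CPM in wild type and 55.3, 99.8 and 60.8 CPM in Mutant, a log2 change of -1.48 (SE 0.39, edgeR adjusted p = 0.192). Ccr1, a receptor of monocytes and neutrophils, had 28.8, 39.6 and 29.2 CPM in wild type and 12.7, 22.4 and 14.1 CPM in Mutant. Ccl6 had 342, 306 and 264 CPM in wild type and 108, 256 and 136 CPM in Mutant. Mutant replicate 2 was nearest to wild type in all 3. Its summed macrophage markers were not reduced, although some single markers were. The part of macrophage RNA in these levels was not tested.

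Among the macrophage markers, 3 of 18 were lower without overlap, Mrc1, Lyz2 and Arg1, a share near the 12.1% of all tested genes, and DESeq2 called Mrc1 with all libraries. Mrc1, the mannose receptor, had 102, 137 and 132 CPM in wild type and 46.8, 93.8 and 48.3 CPM in Mutant. All 9 MHC class II genes, which present antigen, had negative log2 changes with and without Mutant replicate 1, with medians of -0.44 and -0.59. Of these, 0 passed edgeR or DESeq2, 0 had an unadjusted edgeR p under 0.05, and 2, H2-Ob and Ciita, were lower without overlap, or 5 without Mutant replicate 1, beside 12.1% and 16.3% of all tested genes. H2-Ab1 had 264, 404 and 315 CPM in wild type and 288, 266 and 164 CPM in Mutant, so the groups overlapped. Complement genes were split, with 9 of 17 log2 changes positive, or 13 without Mutant replicate 1, and medians of 0.10 and 0.22. Without overlap 5 were higher and 0 lower, or 6 and 0, beside 10.4% and 14.9% of all tested genes higher. Among these 5 were C3, at 137 to 145 CPM in wild type and 212 to 276 CPM in Mutant, and Clu, at 61.3 to 103 CPM and 107 to 150 CPM. None of the list passed edgeR or DESeq2. Interferon response and cell cycle genes had medians of -0.18 and -0.11, and 0 of their 20 and 30 genes passed a test. Ccnd1, a cyclin of cycle entry, had 655, 513 and 678 CPM in wild type and 623, 1450 and 926 CPM in Mutant.

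Endothelial markers stood higher in Mutant. Of 12 genes 9 were higher without overlap, with and without Mutant replicate 1, beside 10.4% and 14.9% of all tested genes, and all 12 log2 changes were positive, with a median of 0.57, or 0.52 without that library. DESeq2 called 1, Vwf, with all libraries and 0 without Mutant replicate 1, and edgeR called 0. With all libraries 6 had an unadjusted edgeR p under 0.05, all higher, beside 7.04% of all tested genes. Vwf, the clotting factor of vessel walls, had 79.0, 119 and 115 CPM in wild type and 240, 192 and 253 CPM in Mutant, a log2 change of 1.13 (SE 0.27, edgeR adjusted p = 0.171). Pecam1, an adhesion molecule of endothelial junctions, had 191, 246 and 217 CPM in wild type and 375, 291 and 374 CPM in Mutant. Mutant replicate 2 was the lowest Mutant library in both, and still above wild type. Cdh5, the cadherin of the same junctions, stood at 84.9 to 162 CPM in wild type and 173 to 224 CPM in Mutant.

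The other marker lists differed in size and direction. Over all tested genes 10.4% were higher and 12.1% lower without overlap, or 14.9% and 16.3% without Mutant replicate 1. At an unadjusted edgeR p under 0.05 with all libraries, 7.04% were higher and 6.17% lower. Skeletal muscle genes had a median log2 change of -2.90, or -2.68 without Mutant replicate 1, with 5 of 13 lower without overlap, and the spread was set by wild type replicate 3. All 10 adipocyte markers had positive log2 changes in both fits, with a median of 0.79, or 0.90 without Mutant replicate 1, and 3 were higher without overlap, or 5. Perineurial markers were mixed, with 7 of 10 log2 changes positive, or 6 without Mutant replicate 1, and medians of 0.25 and 0.20. In both cases 3 were higher and 0 lower without overlap, and at an unadjusted edgeR p under 0.05, 2 were higher and 1 lower. Itgb4, the integrin of the perineurial basal lamina, had 20.9, 32.4 and 47.2 CPM in wild type and 96.9, 71.9 and 68.9 CPM in Mutant. Cldn1 of the same list overlapped, at 184, 261 and 259 CPM in wild type and 311, 179 and 274 CPM in Mutant. Of 11 T and NK cell markers tested, 3 had a positive log2 change, and the median was -0.45, or -0.89 without Mutant replicate 1. At an unadjusted edgeR p under 0.05, 0 were higher and 2 lower. Without overlap 0 were higher and 1 lower, and with Mutant replicate 1 left out 1 was higher and 5 lower. Gzmb, a cytotoxic granule protease, went against most of this list and made up most of its summed level. It had 227, 79.8 and 174 CPM in wild type and 224, 533 and 386 CPM in Mutant, while Nkg7 and Cd2 were each at most 1.42 CPM in every library. Fibroblast markers had a median of 0.02, with 1 of 12 higher without overlap, and Col1a1 ran from 1865 to 5614 CPM within wild type alone. The neuronal, keratinocyte, neutrophil, mast cell and B cell lists each summed to under 100 CPM in each of the 6 libraries.

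**Figure D4:**
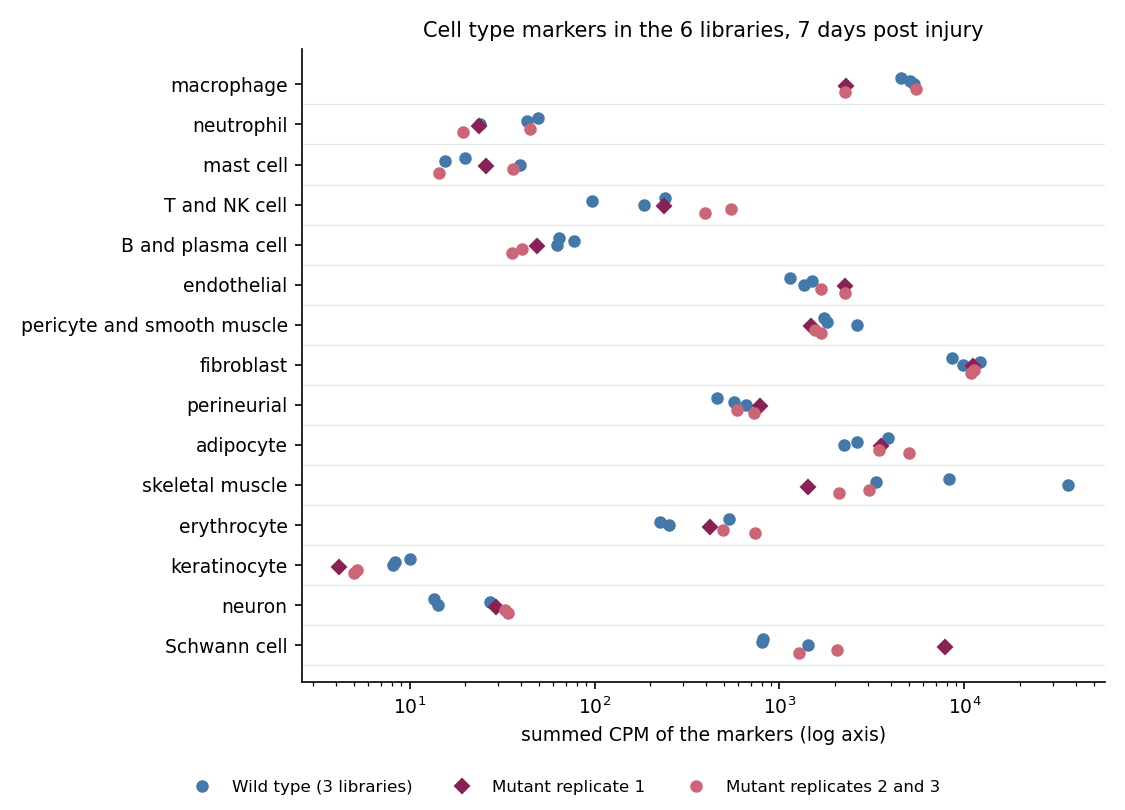
Summed CPM of the markers of 15 cell types on a log axis, with 1 point per library. Endothelial sums are 2250, 1670 and 2250 CPM in Mutant against 1140 to 1500 CPM in wild type, skeletal muscle reaches 36400 CPM in wild type replicate 3, and Schwann cell markers reach 7870 CPM in Mutant replicate 1.

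The remaining lists held single genes of interest. In the EGF family list, 3 of 11 genes tested were higher and 2 lower without overlap, beside 10.4% and 12.1% of all tested genes. Without Mutant replicate 1 these were also 3 and 2, beside 14.9% and 16.3%. The list was mixed, with 7 of 11 log2 changes positive and a median of 0.09. Erbb2 and Erbb3, the paired neuregulin receptors, were among the higher genes. Erbb2 had 20.6, 27.8 and 24.6 CPM in wild type and 32.4, 34.8 and 33.0 CPM in Mutant. Nrg1, their ligand, had 1.11, 1.58 and 1.06 CPM in wild type and 0.818, 0.679 and 0.642 CPM in Mutant, lower without overlap. Mmp19, a matrix metalloproteinase, had 61.1, 62.4 and 53.9 CPM in wild type and 74.0, 114 and 123 CPM in Mutant. Mmp19 passed DESeq2 with all libraries (adjusted p = 0.0329) and without Mutant replicate 1 (adjusted p = 0.00869), while edgeR gave 0.204 and 0.279. Of 17 integrated stress response genes tested, 4 were higher and 1 lower without overlap, beside 10.4% and 12.1% of all tested genes. The higher genes were Trib3, Slc3a2, Phgdh and Asns. The lower gene was Atf4, the factor that drives them, at 99.7 to 119 CPM in wild type and 84.3 to 98.8 CPM in Mutant. At an unadjusted edgeR p under 0.05, 4 of the list were higher and 0 lower, so Atf4 did not reach that level. Of the list 0 passed edgeR or DESeq2. Glycolysis genes were split, with Slc2a1, the glucose transporter GLUT1, at 74.8 to 128 CPM in wild type and 139 to 156 CPM in Mutant, and the muscle enzyme Pfkm at 449 CPM in the muscle-rich wild type replicate 3. No gene of the TGF-beta and YAP/TAZ list or of the immediate early and heat shock list passed a test.

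The genotype difference at 7 days was then set against that at the other times, with the difference between times tested as an interaction. Against 3 days, 0 of 15852 genes (0%) passed edgeR's test, 1020 (6.43%) had an unadjusted p under 0.05, and DESeq2 called 33 (0.208%). Slc27a1 had 102, 124 and 126 CPM in wild type and 86.5, 109 and 102 CPM in Mutant at 3 days, where the groups overlapped. Its genotype difference was 1.33 more positive at 7 days (edgeR adjusted p = 0.287, and from 9.65e-05 with DESeq2 to 0.827 over the alternatives). Nat8l stood at 5.50 to 7.88 CPM in wild type and 5.86 to 6.99 CPM in Mutant at 3 days, and the 7-day Mutant libraries were above all of these. Ccr2 went the other way, with 106 to 132 CPM in wild type and 124 to 148 CPM in Mutant at 3 days, a difference of -1.08 between times (edgeR adjusted p = 0.341). Gjb1 still had 742 to 795 CPM in wild type and 566 to 821 CPM in Mutant at 3 days, far above every 7-day library.

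Against 14 days, 15 genes (0.0946%) passed edgeR's test, 4 with a more positive (0.0252%) and 11 with a more negative (0.0694%) genotype difference at 7 days. With Mutant replicate 1 left out it called 5 (0.0309%), and all 5 were among the 15. DESeq2 called 442 (2.79%), and 258 (1.59%) without that library. Slc27a1 had 57.5, 45.7 and 47.1 CPM in wild type and 45.0, 31.5 and 40.2 CPM in Mutant at 14 days, so that the order of the genotypes turned, and its difference changed by 1.45 (SE 0.23, edgeR adjusted p = 0.0255, and 0.0456 without Mutant replicate 1). The call ended with the replicate block (edgeR adjusted p = 0.0588) and when any of wild type 1 or 2 or Mutant 2 or 3 of 7 days, or any wild type library or Mutant 3 of 14 days, was left out, at up to 0.0894. Tmem252, a transmembrane protein, was also higher in Mutant at 7 days, at 55.5, 42.9 and 62.2 CPM against 31.1, 28.3 and 22.1 CPM, and its difference changed by 2.07 (edgeR adjusted p = 0.0178). That call ended with the block, without Mutant replicate 3 of 7 days and without wild type replicate 3 of 14 days, at up to 0.0803. S1pr1, a sphingosine-1-phosphate receptor of vessels and lymphocytes, stood at 83.5 to 95.0 CPM in wild type and 120 to 149 CPM in Mutant at 7 days, and its difference changed by 1.27 (edgeR adjusted p = 0.0286). Gnai1, an inhibitory G protein subunit, stood at 24.1 to 30.3 CPM and 44.3 to 51.5 CPM, and changed by 1.49 (edgeR adjusted p = 0.0446). Without Mutant replicate 1 of 7 days these were 0.0583 for S1pr1 and 0.0896 for Gnai1, and leaving out any other 7-day library also ended both calls, as did leaving out wild type 1 or 3 or Mutant 3 of 14 days. Meg3 changed by -4.06 (edgeR adjusted p = 0.000632, at most 0.0424 in every alternative), and it had 4.83 to 6.20 CPM in wild type and 42.6, 31.4 and 35.8 CPM in Mutant at 14 days. Adamts6, Gramd1a and Fam193b also passed in that direction, with 7-day log2 changes of -0.71, -0.05 and -0.29. Without Mutant replicate 1 of 7 days Adamts6 passed (edgeR adjusted p = 0.0395), Gramd1a (0.0871) and Fam193b (0.0531) did not, and leaving out either of the other Mutant or any wild type library of 7 days ended all 3 calls. The 14-day libraries reached up to 172000 CPM of skeletal muscle markers, and the count of calls was 353 with a muscle covariate, so the number of genes in this comparison depends on that adjustment.

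**Figure D5:**
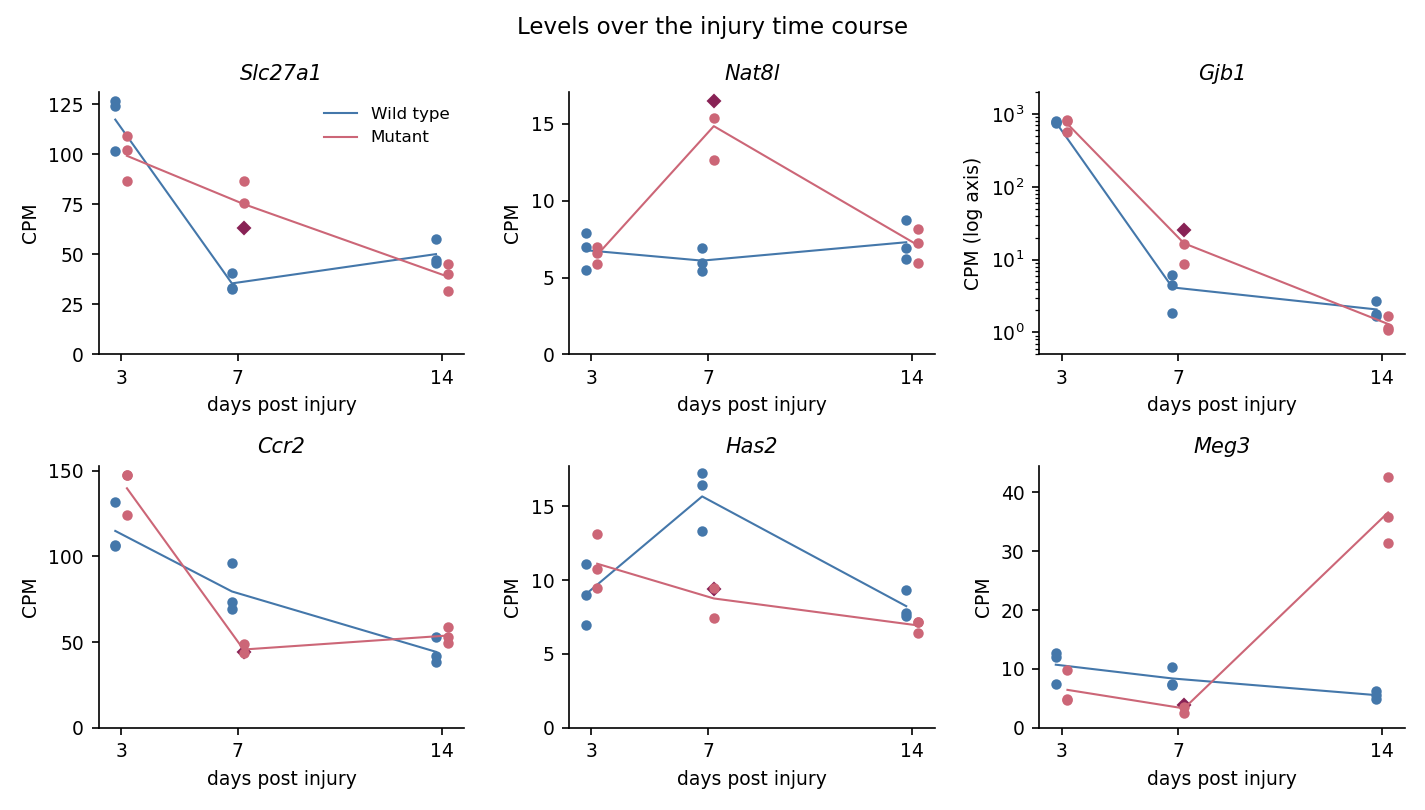
CPM of 6 leading genes at 3, 7 and 14 days post injury, 1 point per library and lines through the group means (dark diamond, Mutant replicate 1 at 7 days; log axis for Gjb1). Slc27a1, Nat8l and Gjb1 are higher in Mutant at 7 days, Ccr2, Has2 and Meg3 are lower, and Meg3 reaches 31.4 to 42.6 CPM in Mutant at 14 days.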

How the data were processed

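The authors deposited estimated counts per gene, made with kallisto on mm10 per the submitters' processing notes. The version, the annotation and how transcripts were summed to genes are not given. These estimated counts were rounded, and no column was left unused. All 18 time-course libraries entered one fit: edgeR 4.0.16 (R 4.3.3), filterByExpr with minimum count 10, TMM scaling, robust quasi-likelihood test, two-sided, Benjamini-Hochberg adjusted p under 0.05, 12 residual degrees of freedom. Standard errors were taken from each log2 change and the root of its F statistic. DESeq2 1.42.0 was the alternative, and its adjusted p was undefined for 1242 genes. CPM used TMM library sizes, and log2 CPM a pseudocount of 2. Fold changes of an interaction are differences of log2 changes between times.

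Genes were named by rule: Mitf, per direction the 10 smallest p with and without Mutant replicate 1 among genes with a mean of at least 1 CPM, 4 per interaction and direction, 4 per list, and further list members where needed; predicted, clone, pseudogene and sex-linked names were left out of the ranked parts. An absolute log2 minimum of 1 was dropped where too few genes passed, and genes are named as not passing. The members, the 23 gene lists and the 15 marker lists were chosen with earlier results of these data known. Replicates of a group were not the same library, since a chi-square of any pair's counts came to at least 11.4 per degree of freedom. No pairing by replicate number was visible in the 7-day samples: same-numbered deviations correlated at 0.04, -0.21 and -0.12. Deviations from a mean of 3 libraries cannot show that a pairing was absent. Some list members are not reported here by name. The scripts were tested on simulated data. Promoters are RefSeq's on GRCm38.p6, and gene positions GENCODE vM21 on mm10, matched by symbol. Alternatives were RLE scaling, no filter, DESeq2, a replicate block, a sex covariate (Y-linked counts), a muscle covariate, the 7-day libraries alone and each library left out.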

Additional observations from a re-analysis of the deposited data

Results flagged for a closer look

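The genotype difference at 7 days differed from that at 14 days in 15 genes by a test of the difference itself. Among the genes named, the difference was more positive at 7 days for Tmem252 (2.07 on the log2 scale), Slc27a1 (1.45), S1pr1 (1.27) and Gnai1 (1.49). It was more negative for Meg3 (-4.06), Adamts6 (-2.92), Gramd1a (-0.96) and Fam193b (-1.86). In Adamts6, Gramd1a and Fam193b the larger genotype difference was at 14 days. Their log2 changes were 2.22, 0.91 and 1.58 at 14 days, against -0.71, -0.05 and -0.29 at 7 days. Meg3 stood at 2.56 to 3.82 CPM in the Mutant libraries at 7 days and at 31.4 to 42.6 CPM in those at 14 days, while wild type stood between 4.83 and 12.7 CPM at all times. Skeletal muscle markers differed widely between the 14-day libraries, and their part in these differences was not tested gene by gene.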

How the results depend on the processing

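Counts of genes past the test moved with most choices. With all libraries edgeR's 0 calls at 7 days became 2 with RLE scaling, 3 with no filter, 1 with the sex covariate and 243 with DESeq2, and ran from 0 to 11 with a replicate left out. They stayed at 0 with the replicate block, the muscle covariate and the 7-day libraries alone. Without Mutant replicate 1 the 2 calls became 76 with DESeq2 and 0 with the replicate block, the sex covariate, the muscle covariate or the 7-day libraries alone, and ran from 0 to 7 with a further library left out. Where 1 Mutant library remained, it was assumed to vary like the other groups. The interaction with 3 days kept 0 calls in every fit except DESeq2's 33. The interaction with 14 days had 15 calls, which became 27 with RLE scaling, 442 with DESeq2, 3 with the replicate block, 6 with the sex covariate and 353 with the muscle covariate, and ran from 1 to 212 with a library left out; the highest counts, 121 and 212, came without Mutant replicates 1 and 2 of 14 days. No pairing of replicate numbers is labelled, so the block is a setting and not a known pairing.

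Among single genes 9 values changed sign, and the cause was not tested. Over fits with a library left out, the lowest value coming without Mutant replicate 1, Pmp22 ran from -0.039 to 3.538, Mag from -0.235 to 3.486, Gjc3 from -0.326 to 0.534 and Ncmap from -0.699 to 5.355. Tcirg1 ran from -0.059, without Mutant replicate 2, to 0.498. With the sex covariate Gjc3 was -0.299, Ncmap -0.188 and Sc5d -0.031, and Atp6ap2 was 0.031 with the muscle covariate. In 28 of 299 alternatives a list median moved by more than the spread between replicates. With 3 libraries a group, and 2 for Mutant without replicate 1, differences below the spread between libraries could not be detected.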
